A study of Homo sapiens with 3 samples.

Results

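The genes described here were 10 tubulin genes of the colorectal cancer line HCT116: the alpha isotypes TUBA1A, TUBA1B, TUBA1C and TUBA4A, the beta isotypes TUBB, TUBB2A, TUBB3, TUBB4B and TUBB6, and the gamma tubulin TUBG1. They were taken by name from the 33538 genes of the count matrices, with earlier results of these data known. All 10 were found, and 9 reached 10 UMIs per 1000000 (CPM) in every population. TUBB3 stayed below that level throughout. A UMI marks one captured RNA molecule, so CPM is a share of the molecules captured at 3′ ends and is not divided by gene length.

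Microtubules are built from dimers of alpha and beta tubulin, and each class is encoded by several genes, the isotypes. Gamma tubulin sits in ring complexes at centrosomes and nucleates new microtubules. Free tubulin dimers lower the stability of tubulin mRNA, a feedback known as tubulin autoregulation. Dividing cells remodel the microtubule array into a spindle, and some isotypes, such as TUBB3, are best known from neurons.

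The study followed HCT116 cells through 8 Gy of irradiation. Giant cells were isolated on day 5 or 8 and cultured until day 10 or 11, which the study calls radiation-tolerant persister (RTP) cells. Mix1 pooled 4 such preparations, 10000 cells loaded, and its parts carry no tag. Mix2 repeated them under the antibody tag tag8 (IR, 10000 cells loaded) and added non-irradiated cells (0 Gy) under tag6 (NC, 1000 loaded) and repopulated cells, regrown after irradiation, under tag7 (R, 1000 loaded). All cells carried the genotype label p53plus, and the giant cells of one preparation could not be separated from those of another. Cells needed at least 200 genes, less than 10% mitochondrial UMIs and, in Mix2, at least 80% of their tag counts from their own tag. Tag limits were 374 for NC, 104 for R, 3160 for strongly tagged IR cells (strong IR), and 500 to 3159 for weakly tagged IR cells (weak IR). The tag8 count alone separated strong from weak IR.

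These limits left 810 NC, 633 R, 6322 weak IR, 2216 strong IR and 15630 Mix1 cells. The Mix1 count exceeds the 10000 cells stated as loaded. Mix2 had 13888 barcodes for 12000 cells loaded, and 11652 of them passed the gene and mitochondrial limits. Barcodes of either library thus need not all be intact cells. The Mix1 quartile with fewest UMIs had a median of 2364 per cell. The reason for these counts above the numbers loaded was not tested. Summed UMIs ran from 4731705 in R to 150680612 in Mix1. Median UMIs per cell were 7160.5 in NC, 6933 in R and 7216 in weak IR, against 11861.5 in strong IR and 8995.5 in Mix1. All 5 epithelial markers (EPCAM, CDH1 and 3 keratin genes) reached 10 CPM in all populations, and no marker of fibroblasts, immune, endothelial or erythroid cells did. Of 10 neuronal markers only SYT1 did, at 24.1 CPM in R to 47.1 in Mix1. Mix1 and Mix2 shared 59 of their 17019 and 13888 barcodes. Each population came from 1 sample, so no difference was tested. Brackets hold 95% intervals that cover counting error only, exact except for differences between shares, and NC enters every ratio to NC. Mix1 was a separate library, so library and preparation cannot be told apart there.

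RefSeq promoters, from 250 bases before to 50 bases after the gene start, were found for all 10 genes. They were searched on both strands for the cell cycle homology region (CHR, letters TTTGAA), a short element found in many G2/M gene promoters, and for the CCAAT box (letters CCAAT). Of 35116 promoters of this length, 15.2% held the CHR letters, 34.6% the CCAAT letters and 5.90% both. The 4 promoters below are shown because they hold either both motifs or neither, among genes that were lower in irradiated cells and genes that differed less. That of TUBA4A, which also held neither, is not shown. Sequences are from GRCh38.p14, 5′ to 3′, with motif matches in capitals.
TUBA1C, chr12:49264832-49265131, plus strand: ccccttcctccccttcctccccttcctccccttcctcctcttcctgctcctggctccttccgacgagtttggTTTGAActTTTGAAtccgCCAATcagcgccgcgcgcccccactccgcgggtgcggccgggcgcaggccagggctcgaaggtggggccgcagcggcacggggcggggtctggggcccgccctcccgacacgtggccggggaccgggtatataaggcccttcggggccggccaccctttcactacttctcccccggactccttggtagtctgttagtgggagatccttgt
TUBB4B, chr9:137241037-137241336, plus strand: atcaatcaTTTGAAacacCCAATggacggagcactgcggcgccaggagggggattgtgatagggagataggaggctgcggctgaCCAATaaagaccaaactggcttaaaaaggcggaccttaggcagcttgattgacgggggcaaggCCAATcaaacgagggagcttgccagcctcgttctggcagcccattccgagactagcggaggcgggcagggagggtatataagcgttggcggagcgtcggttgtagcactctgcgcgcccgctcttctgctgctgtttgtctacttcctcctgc
TUBA1B, chr12:49131346-49131645, minus strand: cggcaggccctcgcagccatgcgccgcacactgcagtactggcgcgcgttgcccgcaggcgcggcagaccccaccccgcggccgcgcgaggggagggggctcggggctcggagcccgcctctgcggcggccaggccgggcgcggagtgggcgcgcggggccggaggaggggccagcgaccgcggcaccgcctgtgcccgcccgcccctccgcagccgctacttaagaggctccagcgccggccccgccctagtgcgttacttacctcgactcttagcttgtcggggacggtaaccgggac
TUBB2A, chr6:3157495-3157794, minus strand: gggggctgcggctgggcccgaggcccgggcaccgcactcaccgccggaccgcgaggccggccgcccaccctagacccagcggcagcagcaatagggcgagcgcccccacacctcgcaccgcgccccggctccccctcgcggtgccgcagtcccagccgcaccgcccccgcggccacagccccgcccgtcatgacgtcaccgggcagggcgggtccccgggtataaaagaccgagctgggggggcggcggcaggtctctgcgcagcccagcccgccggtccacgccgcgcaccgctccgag

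TUBA1C held 2 CHR matches, 178 and 170 bases before its start, and a CCAAT box at 160. TUBB4B held a CHR match at 242 and CCAAT boxes at 232, 166 and 103 bases. Neither motif was in the windows of TUBA1B, TUBA4A and TUBB2A. TUBA1A held 2 CCAAT boxes, and TUBB, TUBB3, TUBB6 and TUBG1 held 1 each. Of the 4 genes that were past 1.5-fold lower in strong IR, TUBA1C and TUBB4B thus held both motifs, TUBB a CCAAT box and TUBA1B neither. No member within 1.5-fold held the CHR letters in the window searched, but only 15.2% of all promoters did and the members are few. Per gene only the window nearest its canonical transcript start was searched. TUBA1C had 3 windows, and TUBB, TUBB3 and TUBB6 had 2 each. A link between motif and ratio was not tested.

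The positions below follow GENCODE 44 on GRCh38. The alpha genes TUBA1B (chromosome 12, 49127782 to 49131397, minus strand), TUBA1A (49184686 to 49189080, minus) and TUBA1C (49188736 to 49274600, plus) lay side by side, and TUBA1A and TUBA1C overlapped on opposite strands. TUBA4A was on chromosome 2 (219249710 to 219277902, minus). TUBB (30717435 to 30725538, plus) and TUBB2A (3153497 to 3157544, minus) were on chromosome 6, and TUBB4B (137241287 to 137243707, plus) was on chromosome 9. TUBB3 was on chromosome 16 (89921392 to 89938761, plus), TUBB6 on 18 (12307669 to 12344320, plus) and TUBG1 on 17 (42609641 to 42615238, plus). With a 3′ kit the UMIs stem from the transcript ends of these genes.

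Sequence shared at 3′ ends limits how well some isotypes can be told apart. Of the 90-base stretches in the last 500 bases, 98.8% in TUBB3 also occurred in other genes, mostly in an overlapping readthrough gene, AC092143.1, that had 0 UMIs in every population. The share was 51.1% in TUBB2A, 33.8% in TUBA1B, 13.1% in TUBB4B, 10.2% in TUBA1A and 5.11% in TUBG1. It was 0% in TUBA1C, TUBA4A, TUBB and TUBB6. Values of the first group are therefore less certain than those of the second. How reads from shared stretches were counted was not tested, so low values in the first group need not mean low expression.

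Among the 9 measured genes, the principal alpha isotypes were the lowest relative to NC in strong IR and Mix1. TUBA1B, the most abundant of the 10 genes, had 1782 CPM in NC, 1621 in R, 1549 in weak IR, 921 in strong IR and 721 in Mix1. TUBA1C, the second alpha isotype, had 701, 625, 627, 396 and 323 CPM in the same order. Both genes stood highest in NC, lower in weak IR and R, and lowest in strong IR and Mix1. The ratio to NC in strong IR was 0.517 (0.505 to 0.529) for TUBA1B and 0.564 (0.545 to 0.585) for TUBA1C. In Mix1 it was 0.405 (0.397 to 0.413) and 0.460 (0.446 to 0.475). In weak IR both ratios lay near 0.9, with 0.869 for TUBA1B and 0.893 for TUBA1C.

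The 2 minor alpha isotypes did not follow. TUBA4A had 91.4 CPM in NC, 81.8 in R, 98.7 in weak IR, 103 in strong IR and 70.1 in Mix1. It was thus slightly above NC in strong IR, at a ratio of 1.12 (1.02 to 1.23), and below NC in Mix1, at 0.767 (0.705 to 0.837). TUBA1A, an isotype known for its role in migrating neurons, had 22.3 CPM in NC, 38.5 in R, 24.7 in weak IR, 27.4 in strong IR and 19.0 in Mix1. It was highest in R, at 1.73 times NC (1.37 to 2.17), from 182 UMIs against 136. No NC or R cell held more than 3 TUBA1A UMIs, so the higher level in R was not carried by a few cells with many copies.

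**Figure D1:**
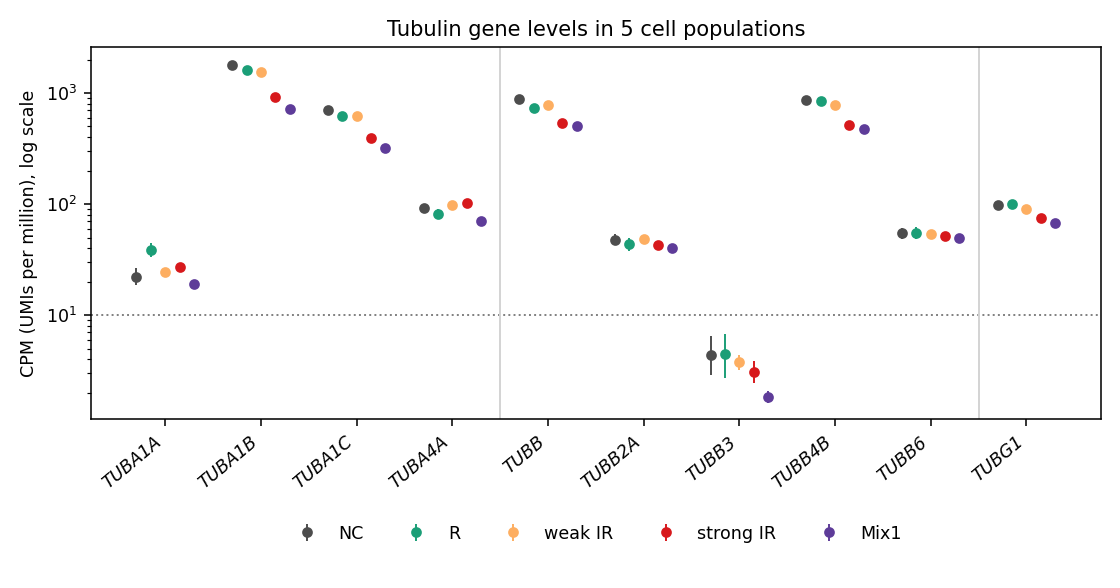
Level of each tubulin gene (CPM, log axis) in NC, R, weak IR, strong IR and Mix1. Bars are exact 95% Poisson intervals that cover counting error only, 1 sample per population, and the dotted line is 10 CPM. TUBA1B, TUBA1C, TUBB and TUBB4B stand lower in strong IR and Mix1, and TUBB3 lies below the line.

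Among the beta isotypes, TUBB and TUBB4B were the major ones, and both were lower in strong IR and Mix1. TUBB, the main beta isotype of dividing cells, had 892 CPM in NC, 738 in R, 786 in weak IR, 536 in strong IR and 510 in Mix1. TUBB4B, a widely expressed isotype also found in cilia, had 866, 851, 781, 516 and 474 CPM. In strong IR the ratio to NC was 0.601 (0.583 to 0.621) for TUBB and 0.596 (0.577 to 0.615) for TUBB4B. In Mix1 it was 0.572 (0.557 to 0.588) and 0.548 (0.533 to 0.563). The pair parted in R, where TUBB was at 0.828 (0.793 to 0.864) of NC while TUBB4B was at 0.983 (0.943 to 1.02).

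TUBB6 and TUBB2A lay nearer to NC than TUBB and TUBB4B did in strong IR and Mix1. TUBB6 had 54.7 CPM in NC, 54.7 in R, 54.1 in weak IR, 52.1 in strong IR and 49.9 in Mix1, and each of its intervals of the ratio to NC held 1. TUBB2A had 47.8, 43.5, 48.6, 43.1 and 40.2 CPM, with only the Mix1 ratio, 0.840 (0.747 to 0.948), excluding 1. TUBB3 was counted 27 times in NC, at 4.42 CPM, and lay between 1.84 CPM in Mix1 and 4.44 CPM in R. Its ratio in strong IR, 0.700 (0.449 to 1.12), could not be told from 1 at this depth, whereas in Mix1 it was 0.417 (0.281 to 0.644). One strong IR cell held 19 TUBB2A UMIs, whereas no NC cell held more than 3.

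TUBG1, the gamma tubulin of the centrosome, had 98.0 CPM in NC, 99.96 in R, 91.1 in weak IR, 75.2 in strong IR and 67.1 in Mix1. Its ratio to NC was 0.768 (0.700 to 0.842) in strong IR and 0.685 (0.631 to 0.745) in Mix1. It was lower than in NC by less than the major alpha and beta genes were, and did not pass 1.5-fold.

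At a limit of 1.5-fold, 4 of the 9 measured genes were lower in strong IR than in NC (TUBA1B, TUBA1C, TUBB and TUBB4B) and 0 were higher. Over all measured genes 15.4% were lower and 9.92% higher. Scaling by TMM, a trimmed mean over genes, moved the split over all genes from 766 higher and 1190 lower to 968 and 918, and kept the 4 tubulin genes lower. The members' median log2 ratio was -0.38, beside -0.11 for all measured genes. In Mix1 the same 4 genes were lower and 0 were higher, where 10% of genes were lower and 6.97% higher, with medians of -0.55 and -0.08. In weak IR 0 passed, where 0.709% of genes were higher and 0.481% lower, and the medians were -0.11 and -0.03. In R only TUBA1A was higher (background 1.45%) and 0 were lower (1.83%), with medians of -0.14 and -0.04.

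Strong and weak IR came from the same tag and the same library. TUBA1B (0.594, 0.586 to 0.603), TUBA1C (0.632, 0.618 to 0.646) and TUBB4B (0.660, 0.647 to 0.673) were past 1.5-fold lower in strong IR and 0 were higher, where 10.6% of measured genes were lower and 7.23% higher. The call for TUBB4B was lost without the mitochondrial limit, on a total without mitochondrial and ribosomal protein genes and with RLE, a scaling by medians over genes. TUBB lay just short of the limit, at 0.683 (0.670 to 0.696). The intervals of TUBA4A, at 1.04 (0.991 to 1.09), and TUBB6, at 0.964 (0.902 to 1.03), held 1.

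**Figure D2:**
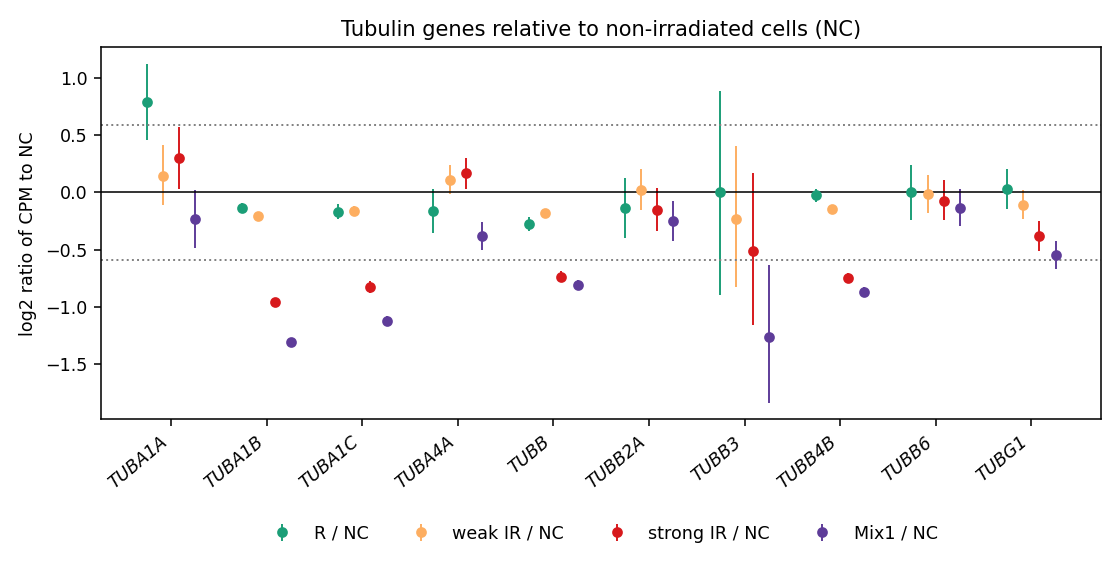
Log2 ratio of CPM to NC for each tubulin gene in R, weak IR, strong IR and Mix1, which all share NC. Bars are exact 95% intervals for counting error only, and dotted lines mark 1.5-fold. The 4 major genes lie below the lower line in strong IR and Mix1, and TUBA1A lies above the upper line in R.

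Summed over the 9 alpha and beta isotypes, tubulin made up 4462 CPM in NC, 4058 in R, 3972 in weak IR, 2597 in strong IR and 2210 in Mix1. The ratio to NC was 0.909 (0.893 to 0.926) in R, 0.890 (0.879 to 0.902) in weak IR, 0.582 (0.574 to 0.590) in strong IR and 0.495 (0.489 to 0.502) in Mix1. Counted per cell the picture was different. A cell held on average 33.6 alpha and beta UMIs in NC, 30.3 in R, 29.5 in weak IR and 31.8 in strong IR, against 21.3 in Mix1. Strong IR cells thus held nearly as many tubulin UMIs as NC cells, within a larger total of UMIs per cell.

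The alpha class was lower relative to NC than the beta class, at 0.557 (0.547 to 0.567) against 0.617 (0.604 to 0.630) in strong IR. The ratio of alpha to beta UMIs was 1.39 (1.36 to 1.43) in NC, 1.40 in R and 1.37 in weak IR, then 1.26 (1.24 to 1.28) in strong IR and 1.05 (1.05 to 1.06) in Mix1.

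The make-up of each class shifted toward its minor isotypes. TUBA1B gave 68.6% of alpha UMIs in NC, 68.5% in R, 67.4% in weak IR, 63.6% in strong IR and 63.7% in Mix1. The difference between strong IR and NC was -4.97 points (-5.83 to -4.10). TUBA4A gave 3.52% in NC, 7.09% in strong IR and 6.19% in Mix1, while TUBA1C differed between strong IR and NC by 0.36 points (-0.47 to 1.18). TUBA1A and TUBA4A together made up 4.38% of alpha UMIs in NC, 5.08% in R, 5.37% in weak IR, 8.99% in strong IR and 7.86% in Mix1. In CPM, TUBA4A stood at 1.12 times NC in strong IR while TUBA1B stood at 0.517.

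The beta class showed the same direction. TUBB2A, TUBB3 and TUBB6 together gave 5.74% of beta UMIs in NC, 6.07% in R, 6.36% in weak IR, 8.55% in strong IR and 8.54% in Mix1. TUBB and TUBB4B stayed close to each other in NC, at 47.8% and 46.4%. In R the order turned, with TUBB4B at 50.3% (49.2 to 51.4) and TUBB at 43.6% (42.5 to 44.7).

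**Figure D3:**
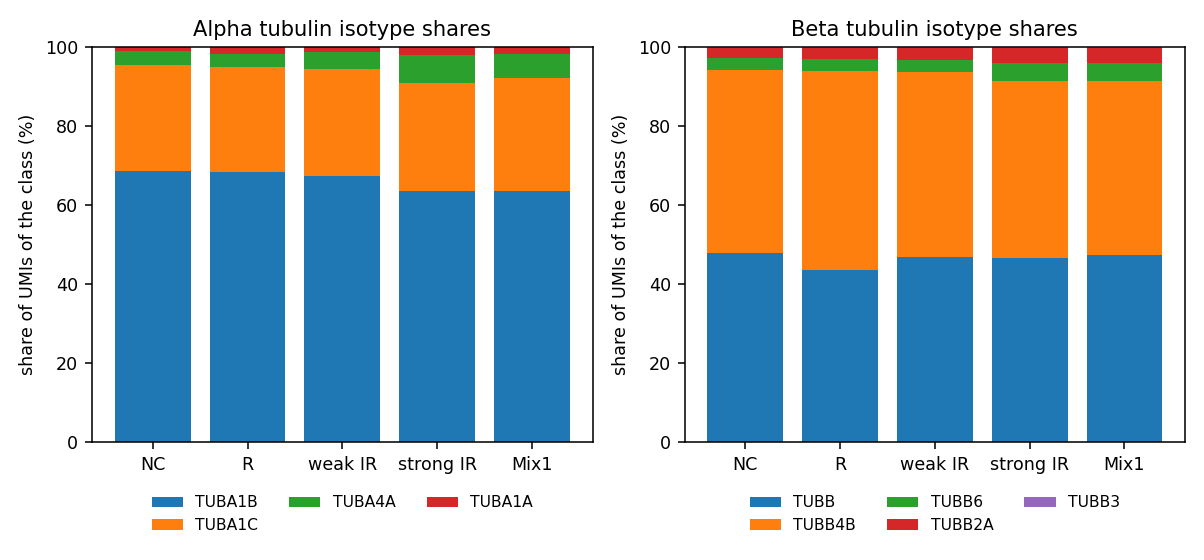
Share of each isotype in the UMIs of its class (percent), alpha at left and beta at right, in the 5 populations. TUBA4A widens from 3.52% in NC to 7.09% in strong IR, and TUBB4B exceeds TUBB in R.

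Cells were thinned to 3000 UMIs each to count cells with at least 1 UMI of a gene at equal depth. Shallower cells were left out, from 1.11% of NC to 23.2% of Mix1. TUBA1B was then found in 98.5% of NC cells, 96.6% of R, 95.6% of weak IR, 79.7% of strong IR and 76.8% of Mix1. Without thinning the shares were 99.6%, 98.7%, 95.2%, 95.8% and 87.4%. TUBB was found in 90.5% of thinned NC cells and 73.3% in strong IR, and TUBB4B in 90.5% and 68.4%. TUBA4A was found in 24.0% of NC and 25.6% of strong IR cells, and TUBA1A in 6.62% of NC and 11.4% of R cells.

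No cell type in these cultures should lack tubulin, so droplets without a cell were used as the background. In 49939 droplets of at least 200 and under 500 gene UMIs, median 391, TUBA1B was found in 25.4% and TUBA1A in 0.997%. Their summed RNA held 2333 CPM of alpha and beta tubulin, near strong IR, and their tag8 median of 116 exceeded those of tag6 (11) and tag7 (3). With this profile subtracted, the log2 ratio of the alpha and beta total in strong IR to NC was -0.81, against -0.78 without.

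The thinned alpha and beta total per cell had a median of 13 UMIs in NC, 12 in R, 12 in weak IR, 6 in strong IR and 6 in Mix1. The central range, from the 25th to the 75th percentile, was 10 to 16 in NC and 4 to 10 in strong IR. Strong IR also spread wider, with the 90th percentile at 15 and a variance to mean ratio of 3.47 against 1.47 in NC. The 75th percentile of strong IR thus equalled the 25th of NC.

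Tubulin mRNA differed with the cell cycle state of a cell. Each cell was scored by the UMIs of 52 G2/M genes, none of them a tubulin gene, per 10000 UMIs, and split at the tertiles of NC (57.9 and 84.3). The low class held 33.3% of NC cells, 37.1% of R, 47.4% of weak IR, 80.7% of strong IR and 74.1% of Mix1. Within 10% of a limit lay 32.7% of NC and 12.6% of strong IR cells. Of the 52 genes, 50 were past 1.5-fold lower in strong IR, with a median log2 ratio of -1.24.

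TUBA1C and TUBB4B had the highest ratio of the high to the low class in NC, at 1.54 (1.43 to 1.66) and 1.51 (1.41 to 1.61) times. TUBB was at 1.24 and TUBA1B at 1.08 in NC, whereas in strong IR TUBA1B was at 2.72 (2.63 to 2.81). TUBA4A was lower in the high class of NC, at 0.687 (0.557 to 0.846), and higher in that of strong IR, at 1.27 (1.12 to 1.44). TUBA1A in R exceeded NC in the low class, at 1.69 (1.14 to 2.54), and the high class, at 2.35 (1.62 to 3.45). In the middle class it was at 1.02 (0.628 to 1.64), from 31 UMIs against 47. Since the low class of strong IR had a median score of 21.5 against 48.1 in NC, cells were also compared in steps of 20 score units.

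In cells scoring 20 to 40, the alpha and beta total in strong IR was 0.648 (0.615 to 0.684) of NC. It was 0.795 (0.772 to 0.818) at 40 to 60, 0.973 (0.945 to 1.001) at 60 to 80, 1.05 (1.01 to 1.09) at 80 to 100 and 0.977 (0.945 to 1.01) from 100 up. The lowest step, at 0.820 (0.690 to 0.983), rested on 11 NC cells. By this score, strong IR was thus below NC in low-scoring cells and level with it, or slightly above, in cells scoring 60 or more. The middle and high classes of strong IR held 251 and 176 cells. With a score from MKI67, TOP2A and CDK1, its middle class was at 0.873 (0.851 to 0.895) of NC and its high class at 0.979 (0.955 to 1.004). Mix1 was below NC in each step, from 0.533 at 20 to 40 to 0.743 at 80 to 100.

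In strong IR TUBA4A exceeded NC in cells scoring 60 or more. TUBB6 did so from 40 up, except at 80 to 100, where its interval held 1. The ratio of TUBA4A was 1.47 (1.20 to 1.81) at 60 to 80, 1.49 (1.16 to 1.93) at 80 to 100 and 1.497 (1.16 to 1.93) from 100 up. At 20 to 40 it was 0.896 (0.673 to 1.22). TUBB6, at 0.953 of NC over all cells, was at 1.46 (1.11 to 1.94) at 40 to 60, 1.53 (1.196 to 1.96) at 60 to 80, 1.09 (0.788 to 1.52) at 80 to 100 and 1.34 (1.004 to 1.80) from 100 up. For TUBA1A the interval excluded 1 in the highest step alone, at 1.69 (1.03 to 2.78). TUBA1B at the 3 steps from 60 up was 0.933, 1.06 and 0.985 of NC. Mix1 did not show the excess of TUBA4A, at 0.835 (0.718 to 0.976) in the middle class and 0.970 (0.828 to 1.14) in the high. TUBB6 in Mix1 was at 1.10 (0.907 to 1.35) and 1.05 (0.884 to 1.26), and both intervals held 1.

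**Figure D4:**
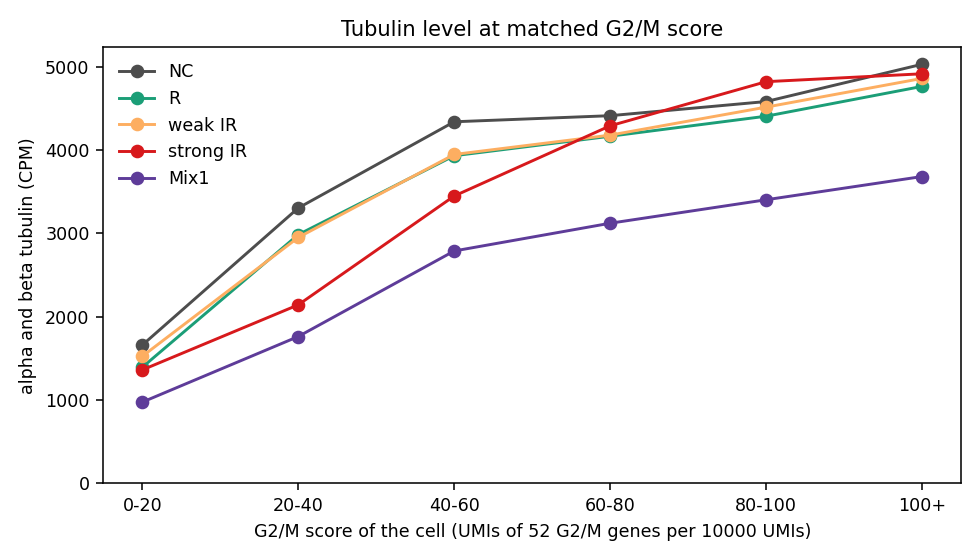
Alpha and beta tubulin (CPM of summed UMIs) in cells grouped by G2/M score (UMIs of 52 genes per 10000 UMIs) in the 5 populations, no error bars. Strong IR meets NC from a score of 60 up, and Mix1 stays below NC in each step.

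Within IR cells the total moved with the tag8 count. Alpha and beta tubulin made up 3801 CPM at tag8 counts of 500 to 999, 4049 at 1000 to 1999, 3960 at 2000 to 3159, 3389 at 3160 to 4999, 2670 at 5000 to 9999 and 1889 from 10000 up. Median UMIs per cell rose from 5720 in the lowest step to 13146 at 5000 to 9999 and were 11080.5 in the highest. TUBA4A did not decline in the same way, with 95.6 CPM in the lowest step, 115 at 5000 to 9999 and 86.8 in the highest. The summed G2/M genes moved along the same steps, with 6511, 7048, 6844, 5374, 3750 and 2746 CPM from the lowest to the highest. The part of UMIs per cell or of the G2/M genes in the differences by tag8 was not tested.

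**Figure D5:**
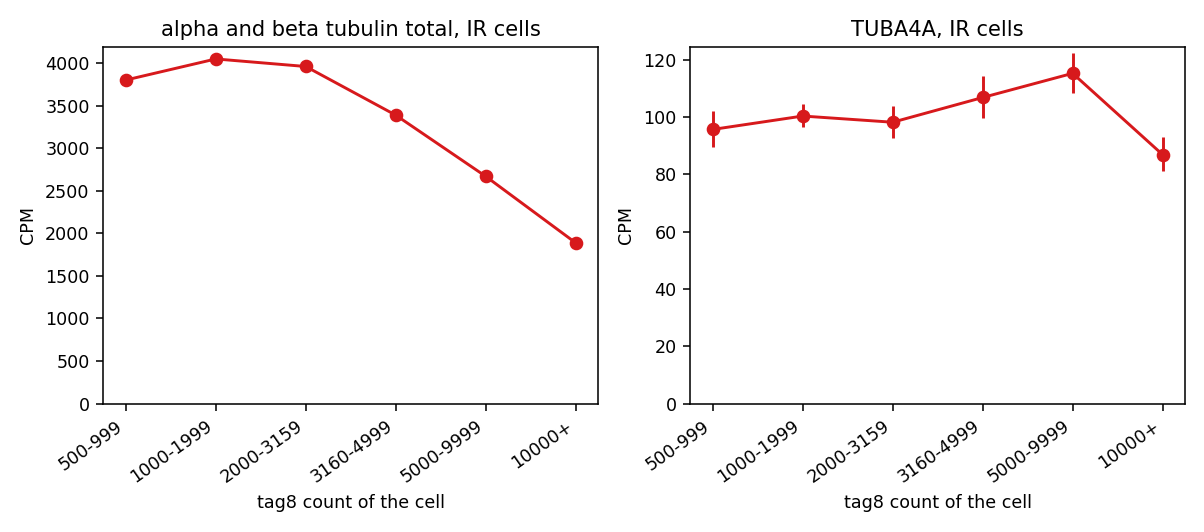
Alpha and beta tubulin (left) and TUBA4A (right), in CPM, in IR cells of Mix2 grouped by tag8 count, with exact 95% Poisson intervals for counting error only. The total falls from 4049 to 1889 CPM, and TUBA4A stays between 86.8 and 115 CPM.

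Depth per cell gave a smaller range. Across quartiles of UMIs per cell in NC, alpha and beta tubulin ran from 4319 to 4673 CPM. In strong IR it rose from 1960 CPM in the quartile with fewest UMIs to 2904 in that with most, so each quartile of strong IR lay below each of NC.

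Of 13 other named tubulin genes, 3 reached 10 CPM in NC or strong IR. TUBE1, the epsilon tubulin of centrioles, was at 0.611 (0.501 to 0.749) of NC in strong IR, and TUBD1, the delta tubulin, at 0.691 (0.540 to 0.890). TUBB4A was past 1.5-fold higher in strong than in weak IR, at 1.53 (1.35 to 1.73), from 11.7 to 17.9 CPM.

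Genes that handle tubulin were counted in the same way, in strong IR against NC, where 15.4% of all measured genes were lower and 9.92% higher. The shares over all genes in Mix1 against NC were 10% and 6.97%. In the gamma tubulin complex, which anchors and nucleates microtubules, 6 of 10 measured genes were lower and 0 higher. In Mix1 1 of the 10, PCNT, was lower, which is the share of all genes there. TUBGCP3, a ring complex subunit, was at 0.462 (0.383 to 0.559) and CDK5RAP2, which tethers the complex to centrosomes, at 0.497 (0.421 to 0.590). Among proteins that destabilize or sever microtubules 5 of 7 were lower (KIF2C, FIGNL1, STMN1, KIF18A and KATNA1) and in Mix1 2 of 8 (STMN1 and KIF2C), with KIF2C, a depolymerizing kinesin that also stands in the G2/M list, at 0.372 (0.322 to 0.430). FIGNL1 was at 0.417 (0.320 to 0.547). The median log2 ratios of the 2 lists were -0.70 and -0.88 in strong IR, beside -0.11 for all genes, and -0.14 and -0.34 in Mix1, beside -0.08.

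In the folding genes the counts past 1.5-fold lay near the shares of all genes, 15.4% lower and 9.92% higher. Of 14 subunits of the CCT chaperonin, which folds tubulin, and its helper prefoldin, 3 were lower (CCT5, TCP1 and VBP1) and 1 was higher. CCT5 was at 0.599 (0.573 to 0.627), TCP1 at 0.639 (0.606 to 0.674) and the higher one, PFDN5, at 1.51 (1.45 to 1.56). In Mix1, where 10% of all genes were lower and 6.97% higher, 0 of the 14 passed. Their median log2 ratio was nonetheless -0.49 in strong IR and -0.42 in Mix1, beside -0.11 and -0.08 for all genes. None of the 6 measured folding cofactors passed, although TBCD stood at 0.685 (0.588 to 0.8003) and ARL2 at 1.17 (1.06 to 1.30). In Mix1 2 of the 6 were lower, TBCA and TBCD. The median of the 6 cofactors was -0.04 in strong IR and -0.10 in Mix1.

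Of 8 stabilizers and polymerases 1 was lower, near the share of all genes: CKAP5, at 0.556 (0.4999 to 0.620), and CLIP1 stood at 0.694 (0.599 to 0.805). Of 5 measured modifiers of tubulin tails 2 were lower, the deacetylase HDAC6 at 0.652 (0.501 to 0.856) and the tyrosine ligase TTL at 0.662 (0.562 to 0.783). In Mix1 CKAP5 and HDAC6 were the only lower genes of these lists of stabilizers and modifiers, where 10% of all genes were lower. In weak IR and in R, no gene of the 6 lists was past 1.5-fold, where 0.709% and 1.45% of all genes were higher and 0.481% and 1.83% lower. The genes beyond the first 2 of a list, and those given for Mix1, were named after their values were seen.

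Among 2707 genes of at least 50 CPM in NC, those whose 4 ratios to NC lay nearest to TUBA1B were MT-ND2, PKMYT1 and UBE2C, with root mean square log2 differences of 0.08, 0.08 and 0.09. Nearest to TUBA1A were SCD, NEAT1 and NARF, at 0.12, 0.12 and 0.20. The 4 points share NC as their base.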

How the data were processed

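Single-cell 3′ libraries of HCT116 cells were analysed. The deposited values were UMI counts per gene and barcode, made by the authors with Cell Ranger (3.1.0 for Mix1, 3.0.1 for Mix2, per the file headers) on GRCh38, without normalization. The submitters' processing notes also name Seurat 2.3. An unfiltered Mix2 matrix served only for droplets without a cell.

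Cells with at least 200 genes and under 10% mitochondrial UMIs were kept. Mix2 cells with under 80% of tag counts from 1 tag were left out, which removes droplets whose counts were spread over several tags. No doublet caller was run, so doublets of 1 tag remain, and droplets in which 1 tag far outweighs another can remain. At a limit of 90%, 581 NC, 354 R, 6309 weak IR and 2067 strong IR cells were left. Each population was summed to 1 profile and expressed in CPM. Ratios carry exact conditional binomial intervals, levels exact Poisson intervals and shares Clopper-Pearson intervals, at 95%, all for counting error only. Intervals of differences between shares combine the limits of both shares and are approximate. A gene entered a comparison if it reached 10 CPM on one side, and 1.5-fold was the limit for a call. With 1 sample per population nothing was tested.

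The 10 genes and the lists were chosen with earlier results of these data known. All 10 were named, with up to 2 genes of each list by the largest log2 ratio of strong IR to NC and 3 by likeness. The range of 200 to under 500 UMIs for droplets without a cell, the G2/M score steps and the tag8 steps were set after seeing the data. The intervals of ratios were checked on simulated counts drawn with counting error alone, so the check could not cover spread between cells or samples. Alternatives changed the cell and tag limits, scaling (TMM and RLE of edgeR 4.0.16), background, thinning depth and fold limit.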

Additional observations from a re-analysis of the deposited data

Results flagged for a closer look

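TUBA4A lay on opposite sides of NC in strong IR of Mix2 and in Mix1. Its ratio to NC was 1.12 in strong IR and 0.767 in Mix1, each with an interval that excluded 1. In weak IR it was 1.08 (0.989 to 1.18). Strong IR cells with tag8 counts from 10000 up had 86.8 CPM (81.1 to 92.9), against 91.4 in NC. The difference between the ratios of strong IR and Mix1 was not tested, both share NC, and library and preparation cannot be told apart in it.

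Barcodes of fewer than 100 gene UMIs in the unfiltered Mix2 matrix, which enter no comparison, held 145 CPM of TUBA1A, from 412 UMIs, and 39.4 CPM of TUBB2B, from 112 UMIs. TUBA1A was highest in R among the populations, at 38.5 CPM, and TUBB2B did not exceed 0.211 CPM in any. The same barcodes held 14548 CPM of 4 erythroid markers and 1034 CPM of 5 immune markers, and their tag8 median was 0. Where this RNA came from was not tested.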

How the results depend on the processing

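No paired analysis was possible because each population came from 1 sample. For the same reason no replicate could be left out. The count of genes past 1.5-fold moved by no more than 1.5 times in any comparison, with 4 in strong IR against NC under each alternative at that limit. Strong against weak IR ran from 2 to 4 genes, with TUBB4B lost without the mitochondrial limit, with RLE and without mitochondrial and ribosomal protein genes, where its log2 ratio moved from -0.60 to at most -0.55. Background RNA could not be subtracted from Mix1.

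The alpha and beta total kept its direction throughout. Its log2 ratio to NC in strong IR, -0.78, was -0.81 without the mitochondrial limit, -0.81 with own tag at 90%, -0.71 on a total without mitochondrial and ribosomal protein genes, -0.70 with TMM, -0.72 with RLE, -0.85 as a mean over cells and -0.81 after subtracting background RNA. In Mix1, -1.01, it was -0.97 without the 5% of cells with most UMIs, -0.95 in cells of 5000 to 20000 UMIs, -0.94 without mitochondrial and ribosomal protein genes and -0.95 with TMM. In weak IR, -0.17, it was -0.22 without the mitochondrial limit, -0.10 with TMM and -0.21 as a mean over cells. In R, -0.14, it was -0.17 without the mitochondrial limit and -0.10 without mitochondrial and ribosomal protein genes.

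The gap in TUBA1B-positive cells between strong IR and NC, -18.8 points, was -33.5 when thinned to 1000 UMIs, -8.86 at 5000 and -3.78 without thinning. With a score from MKI67, TOP2A and CDK1, the total in strong IR over NC was 0.487 in the low class, 0.523 before, and 0.873 in the middle class, 0.957 before. Of the log2 ratios of single genes under an alternative, 67 left the 95% interval of the reported value and 473 did not. Signs changed only for ratios whose intervals held 1: against NC, TUBB6 in strong IR under 1 alternative, TUBB6 under 4 and TUBB2A and TUBB3 under 1 each in weak IR, and TUBB3 under 2 and TUBB4B, TUBB6 and TUBG1 under 1 each in R. TUBA4A in strong against weak IR went from 0.06 to 0 under 1. The cause of these movements was not tested. Over all genes, strong IR against NC had 766 higher and 1190 lower, and with TMM 968 and 918. R had 109 and 138, and without mitochondrial and ribosomal protein genes 142 and 105. Mix1 had 534 and 769, and with that total 672 and 594. Weak IR had 53 and 36, and with TMM 76 and 25. Counts limit TUBB3, at 27 UMIs in NC, and TUBA1A, at 136.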
